A study of Mus musculus with 48 samples.

Results

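The genes described here take up, store, release and recycle heme and iron. There are 10 of them: Hmox1, Blvrb, Cd163, Fth1, Ftl1, Ncoa4, Slc40a1, Tfrc, Slc11a2 and Slc11a1. They were chosen by symbol with earlier results of these data known, and each symbol matched 1 of the 51789 gene identifiers of a raw count table from mouse macrophages. The numbers of the 10 called below are therefore not independent of that choice. All 10 passed the filter on low counts in both fits. The table holds 48 libraries of 3′ tag RNA sequencing in 16 groups of 3: 8 macrophage populations, each given either the vehicle, DMSO, or 10 µM AP-3-84 for 4 h. AP-3-84 is known here by its code name only. The comparisons ask what the compound, the polarization, the loss of p53 and the peritoneal origin did to these genes.

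The labels give the strain C57BL/6 throughout. Ascites macrophages were washed from the peritoneum of mice 45 days after they received ID8 ovarian tumour cells, and their genotype is labelled B6(Cg)-Tyrc-2J/J. Thioglycollate macrophages came from wild-type C57BL/6 mice, 4 days after 1 ml of 3% thioglycollate into the peritoneum. Both peritoneal populations were F4/80+ cells taken on magnetic beads. The other 6 populations were grown from bone marrow for 6 days in 10 ng/mL M-CSF. M0 cells were left unpolarized. M1 cells had a further 24 h in LPS (100 ng/mL) with IFN-γ (50 ng/mL), and M2 cells had the same time in 10 ng/mL IL-4 and 10 ng/mL IL-13. Whether M0 cells also had a further 24 h in culture is not stated. Culture time and polarization therefore cannot be told apart where M1 or M2 is compared with M0. Each of these 3 states came from wild-type and from p53 KO B6 marrow. The genotype field calls the KO cultures wild-type, so the KO label was taken from the sample titles, and the deleted part of the p53 gene is not stated. Ascites and thioglycollate cells differ at once in tumour, genotype label and time, which cannot be told apart. The labels do not say that replicates came from separate mice or cultures, so the p-values measure the spread between these libraries, which may be technical.

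Macrophages recycle the iron of dying red cells. Cd163 is the scavenger receptor for haemoglobin bound to haptoglobin, Hmox1 (heme oxygenase 1) opens heme into iron, carbon monoxide and biliverdin, and Blvrb (biliverdin reductase B) reduces biliverdin and flavins. Iron is stored in ferritin, a shell of heavy chains (Fth1) and light chains (Ftl1), and Ncoa4 is the cargo receptor that carries ferritin to the lysosome for its release. Slc40a1 (ferroportin) exports iron, Tfrc (transferrin receptor 1) takes it in, Slc11a2 (DMT1) moves it out of the endosome, and Slc11a1 (NRAMP1) moves divalent metals out of the phagosome. C57BL/6 mice carry a known loss-of-function allele of Slc11a1, so its RNA does not stand for a working transporter here. When iron is short, iron regulatory proteins bind a hairpin, the iron-responsive element. At the 5′ end of an mRNA this blocks translation, and at the 3′ end it slows decay. Hmox1 and the ferritin genes are also known targets of NRF2, and BACH1 holds Hmox1 back until heme releases it.

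The iron-responsive elements are printed because 4 of the 10 genes matched the pattern searched for, and the RNA levels below bear on them unequally. A 5′ element acts on translation, which counts do not measure, and a 3′ element acts on the RNA level itself. The search took a C, then 5 bases, the loop CAGTGN and 5 bases that pair with the first 5 (G-U pairs allowed), on the transcript's strand of the untranslated regions annotated in GENCODE M21 on GRCm38. The loop is in capitals and each sequence runs 5′ to 3′.
Fth1, 5′ untranslated region, chr19:9982733-9982760, plus strand: tcctgcttcaaCAGTGCttgaacggaac
Ftl1, 5′ untranslated region, chr7:45459779-45459806, minus strand: tcttgcttcaaCAGTGTttgaacggaac
Slc40a1, 5′ untranslated region, chr1:45925465-45925492, minus strand: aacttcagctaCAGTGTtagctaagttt
Tfrc, 3′ untranslated region, chr16:32631220-32631247, plus strand: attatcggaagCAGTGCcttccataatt
Tfrc, 3′ untranslated region, chr16:32631599-32631626, plus strand: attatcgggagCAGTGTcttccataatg
Tfrc, 3′ untranslated region, chr16:32631664-32631691, plus strand: tatatcggagaCAGTGAtctccatatgt
Tfrc, 3′ untranslated region, chr16:32631711-32631738, plus strand: attatcgggaaCAGTGTttcccataatt
The pattern was found in the 5′ region of 31 of 20899 genes (0.148%) and in the 3′ region of 129 of 21685 genes (0.595%). Fth1 and Ftl1 have the same 5 bases on each arm, and all 4 matches of Tfrc lie in its 3′ region. The other 6 genes held no match in these regions, Slc11a2 included. The pattern requires all 5 bases of each arm to pair, so an element with an unpaired base there would be missed. A gene without a match may therefore still carry an element. Slc11a2 has alternative 3′ ends, which a count per gene does not separate.

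The bone marrow-derived libraries held 3081707 to 4645148 counts and the peritoneal libraries 15532373 to 19417581. The depths do not overlap, so the 36 and the 12 libraries were fitted and scaled apart and are not compared by a test. Levels are given as CPM, counts scaled to equal library totals by edgeR after TMM scaling. Fth1 and Ftl1 together took 2.90% to 6.98% of all counts in bone marrow-derived libraries and 2.54% to 3.92% in peritoneal ones. All 7 macrophage markers were detected in every group. The 9 erythroid markers summed to at most 2.22 CPM in any library and at least 4 of them, among them always a haemoglobin gene, were at 0 in every group. The 7 epithelial or ID8 markers summed to 210 to 247 CPM in ascites vehicle libraries and to 2.55 to 4.66 CPM in thioglycollate ones. The 5 B cell markers reached at most 33.3 CPM and the 6 T cell markers at most 7.08 CPM. The 7 neutrophil markers ranged over groups from 62.5 to 94.8 CPM in ascites vehicle to 3956 CPM in 1 wild-type M2 vehicle library. The p53 targets Cdkn1a (555 to 1119 CPM in wild-type, 34.1 to 292 CPM in KO) and Phlda3 (9.17 to 40.5 CPM against 0 to 1.31 CPM) separated the genotypes in all 36 libraries, while Trp53 itself did not (4.79 to 13.2 CPM against 2.70 to 9.11 CPM).

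Several bone marrow-derived libraries stood apart from their group. The 3 KO M0 libraries with AP-3-84 were unlike each other: Slc40a1 was at 44.7, 15.8 and 368 CPM in them, against 285, 279 and 278 CPM in the vehicle libraries. Their cell cycle marker sums were 412, 1202 and 421 CPM, against 165 to 214 CPM in vehicle, and 9 of 10 cell cycle markers were called higher. Their macrophage marker sums were 38790, 17930 and 29060 CPM. By the mean chi-square per gene between 2 libraries, libraries 1 and 2 were the closest pair (12.4), against 29.8 and 38.7 for library 3 with each. The calls and fold changes of KO M0 with the compound are given with and without libraries 1 and 2. That leaves 1 treated library, which is assumed to vary like the other groups. Fewer libraries also give less power, so a call lost there is not read as a lost difference. In M2 cells, vehicle library 1 of the wild-type group had the neutrophil sum of 3956 CPM, against 458 and 581 CPM in the other 2, and vehicle library 3 of the KO group had 3286 CPM. The macrophage sum of KO M2 vehicle libraries was 5894 to 18410 CPM, against 24910 to 30920 CPM in wild-type M2.

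After 4 h of AP-3-84, Hmox1, Slc40a1 and Blvrb rose in both peritoneal populations. Hmox1 was 3.10-fold higher in ascites and 2.80-fold higher in thioglycollate macrophages, ferroportin 2.81-fold and 2.00-fold, and Blvrb 1.34-fold and 1.32-fold. In thioglycollate macrophages Ncoa4 and Tfrc fell. In bone marrow-derived cells 1 gene, Slc11a2, fell in wild-type M2, and 4 genes changed in KO M0, where the treated libraries disagree.

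A gene was called when its edgeR quasi-likelihood p, adjusted by Benjamini-Hochberg over all genes of the comparison, was under 0.05. Fold changes follow in parentheses as log2 values (first group over second) ± their standard error. In ascites 3 of 10 genes were called, all higher, where 1.79% of all 16955 genes tested were called, 1.69% higher and 0.1% lower. In thioglycollate macrophages 5 of 10 were called, 3 higher and 2 lower, against 4.32% of all genes. In wild-type M2 the 1 called gene was lower, against 1.21% of 11779 genes called, 0.229% higher and 0.976% lower. On scaling by total counts the higher share of called genes went from 94.4% to 81.8% in ascites and from 19.0% to 33.1% in wild-type M2, where the median of all genes was 0.11. In KO M0 4 of 10 were called, 3 higher and 1 lower, against 20.7% of all genes, 2440 in number. Without treated library 3, which keeps libraries 1 and 2, 3597 of 12081 genes were called. Without treated libraries 1 and 2, 67 of 12711 genes were called in KO M0 and 0 of the 10. None of the 10 was called in wild-type M0 (background 0.144%), wild-type M1 (0.017%), KO M1 (0%) or KO M2 (0.0509%). At an unadjusted edgeR p under 0.05 these 4 populations had 4, 1, 0 and 1 of the 10 genes, and DESeq2 called 0, 0, 0 and 1. The median log2 fold change of the 10 genes was 0.21 in ascites and -0.01 in thioglycollate macrophages, against -0.01 and 0.03 over all genes.

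**Figure D1:**
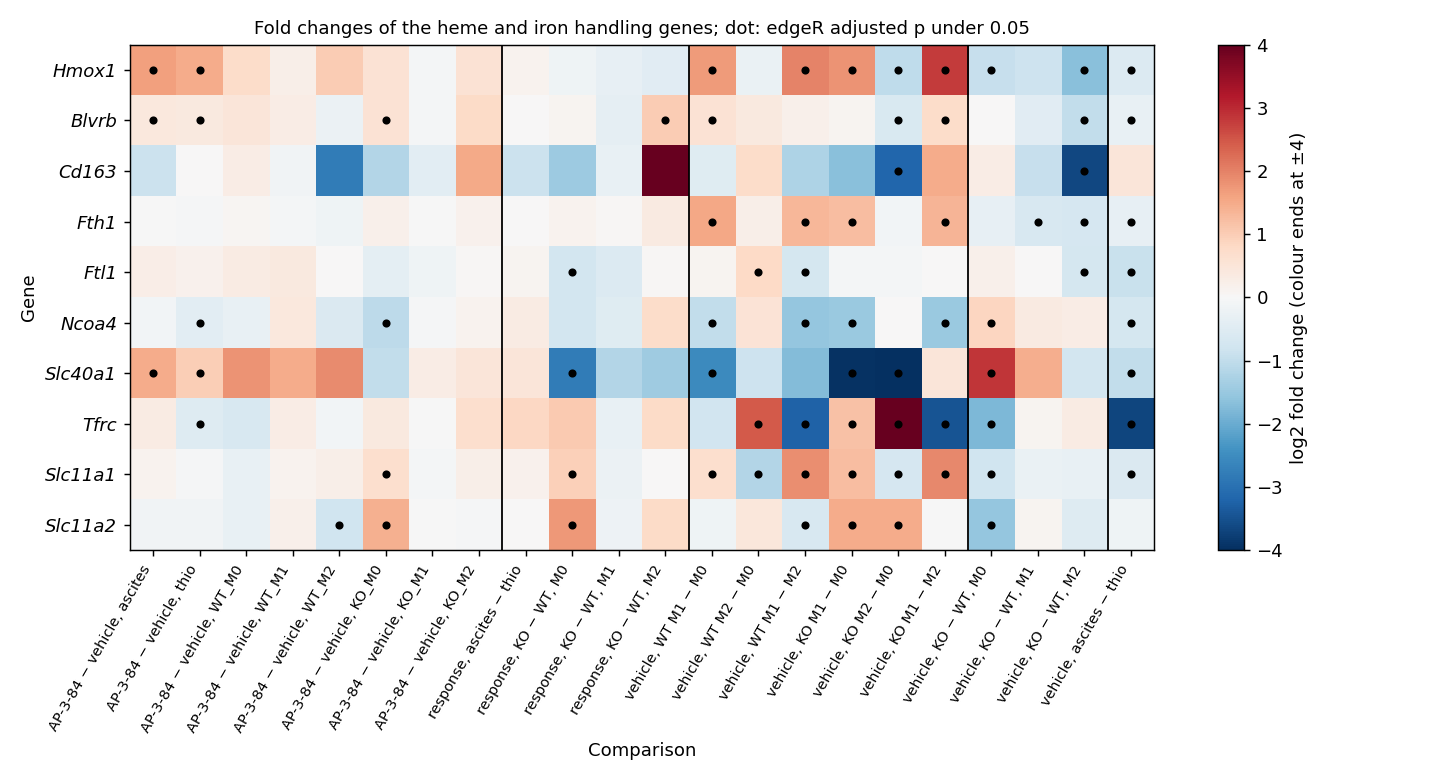
Log2 fold changes of the 10 genes (rows) in the 22 comparisons (columns), on a colour scale cut at 4 in either direction; a dot marks an edgeR adjusted p under 0.05. Hmox1, Slc40a1 and Blvrb are dotted in both peritoneal compound columns, and the dots are densest in the columns for polarization and for ascites against thioglycollate.

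The 2 peritoneal results share one limit. When all 48 libraries were put in a single fit, with 1 shared estimate of the spread, Hmox1 alone stayed called in both populations. The other calls were lost with nearly the same fold changes: Blvrb had an edgeR adjusted p of 0.416 in ascites and 0.403 in thioglycollate macrophages, Slc40a1 of 1 in both, Ncoa4 of 0.754 and Tfrc of 1. The macrophage marker sum was also lower with the compound, 28660 to 30490 CPM in vehicle and 23750 to 28430 CPM in treated ascites libraries, and 34280 to 34750 and 27580 to 32740 CPM in thioglycollate ones. Fcgr1 was called lower in ascites, and Adgre1, Fcgr1 and Mertk in thioglycollate macrophages. What part these marker changes have in the results was not tested. In bulk RNA, fewer cells of a type and less RNA per cell cannot be told apart.

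Hmox1 (ENSMUSG00000005413, chr8:75093621-75100589, plus strand, GRCm38) stood at 29.2, 32.3 and 33.9 CPM in ascites vehicle libraries and at 124, 80.5 and 92.0 CPM with AP-3-84. Every treated library lay above every vehicle library, and the treated ones spread more widely. The rise was 3.10-fold (log2 1.63 ± 0.13, edgeR adjusted p 4.16e-06). Thioglycollate macrophages had 49.6, 47.9 and 42.5 CPM in vehicle and 133, 123 and 136 CPM with the compound. Again the groups were far apart, and here both were tight (log2 1.49 ± 0.13, edgeR adjusted p 7.98e-06).

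In the bone marrow-derived populations the libraries varied more. Wild-type M0 cells had 329, 185 and 165 CPM in vehicle and 306, 430.4 and 403 CPM with AP-3-84. The first vehicle library reached into the treated range, and the difference was not called (log2 0.74 ± 0.30, edgeR adjusted p 0.439). Wild-type M2 cells had 316, 114 and 135 CPM and 428, 346 and 379 CPM. Here all treated libraries were above all vehicle libraries, but vehicle library 1, the one with the high neutrophil sum, was close to them. The test missed the threshold (log2 1.03 ± 0.30, edgeR adjusted p 0.0992), passed it without that library (log2 fold change 1.62, edgeR adjusted p 0.00411), and passed it in DESeq2 (adjusted p 0.0331). KO M2 cells had 44.6, 65.8 and 68.2 CPM and 82.5, 89.1 and 95.8 CPM, low in both groups and without overlap, and were not called (log2 0.58 ± 0.31, edgeR adjusted p 0.447).

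M1 cells had the highest group means of Hmox1, and there the vehicle and treated libraries overlapped. The KO M1 treated libraries also overlapped those of treated wild-type M0 and M2. Wild-type M1 libraries read 773, 785 and 666 CPM in vehicle and 894, 691 and 1036 CPM with the compound (log2 0.24 ± 0.30, edgeR adjusted p 0.897). KO M1 libraries read 510.1, 345 and 401 CPM and 542, 332 and 308 CPM, with 1 high library in each group and a fold change near 0 (log2 -0.09 ± 0.30, edgeR adjusted p 1). KO M0 cells had 97.0, 132 and 133 CPM in vehicle and 168, 132 and 241 CPM with AP-3-84; treated library 2 was within the vehicle range (log2 0.58 ± 0.30, edgeR adjusted p 0.177). Without treated libraries 1 and 2 the log2 fold change was 1.01 with an edgeR adjusted p of 0.449. With no filter on low counts, the Hmox1 differences in wild-type M0, wild-type M2 and KO M0 were all called, at edgeR adjusted p-values of 0.00594, 4.43e-06 and 0.0154. The standard errors were then 0.18, 0.19 and 0.19, each below its value in the filtered fit.

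Blvrb (ENSMUSG00000040466, chr7:27447978-27466144, plus strand) made the smallest of the called rises. Ascites vehicle libraries had 299, 298 and 299 CPM and treated ones 402, 395 and 404 CPM. The groups were tight and well apart (log2 0.42 ± 0.05, edgeR adjusted p 0.000104). In thioglycollate macrophages the values were 367, 384 and 360.4 CPM and 467, 488 and 511 CPM, once more without overlap (log2 0.40 ± 0.05, edgeR adjusted p 0.000217). KO M0 cells went from 437, 460.2 and 468 CPM to 724, 664 and 661 CPM. All 3 treated libraries were high, so Blvrb did not follow the disagreement seen in Slc40a1 (log2 0.59 ± 0.16, edgeR adjusted p 0.00851). With treated library 3 alone the log2 fold change was 0.55, no longer called (edgeR adjusted p 0.418).

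Wild-type M0 and M1 cells gave the same order without a call. M0 libraries had 433, 461 and 449 CPM in vehicle and 657, 604 and 602 CPM with the compound (log2 0.47 ± 0.16, edgeR adjusted p 0.297), and M1 libraries 657, 721 and 642 CPM and 823, 816 and 831 CPM (log2 0.29 ± 0.16, edgeR adjusted p 0.703). In both, every treated library was the higher. KO M2 vehicle libraries were uneven, 424, 237 and 229 CPM, and treated ones had 436, 625 and 449 CPM. The difference just missed the threshold (log2 0.76 ± 0.16, edgeR adjusted p 0.0586), was called without vehicle library 1 (edgeR adjusted p 4.64e-05) or treated library 1 (0.0164), and was called in DESeq2 (adjusted p 0.00374). Wild-type M2 pointed the other way, 591, 614 and 564 CPM in vehicle and 461, 457 and 583 CPM with AP-3-84, with overlap (log2 -0.24 ± 0.16, edgeR adjusted p 0.622). KO M1 libraries overlapped, at 521, 460.0 and 489 CPM and 412, 472 and 509 CPM (log2 -0.08 ± 0.16, edgeR adjusted p 1).

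Cd163 (ENSMUSG00000008845, chr6:124304656-124330527, plus strand), the receptor that brings haemoglobin in, was barely detected: 450 counts over all 48 libraries and at most 35 in any one. Ascites libraries had 1.92, 1.28 and 1.90 CPM in vehicle and 0.566, 1.16 and 1.08 CPM with AP-3-84, lower in every treated library but not called (log2 -0.85 ± 0.45, edgeR adjusted p 0.543). No difference in Cd163 with the compound was called in any population, and the standard errors of its log2 fold changes, 0.45 to 1.21, are those of a gene with few counts.

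**Figure D2:**
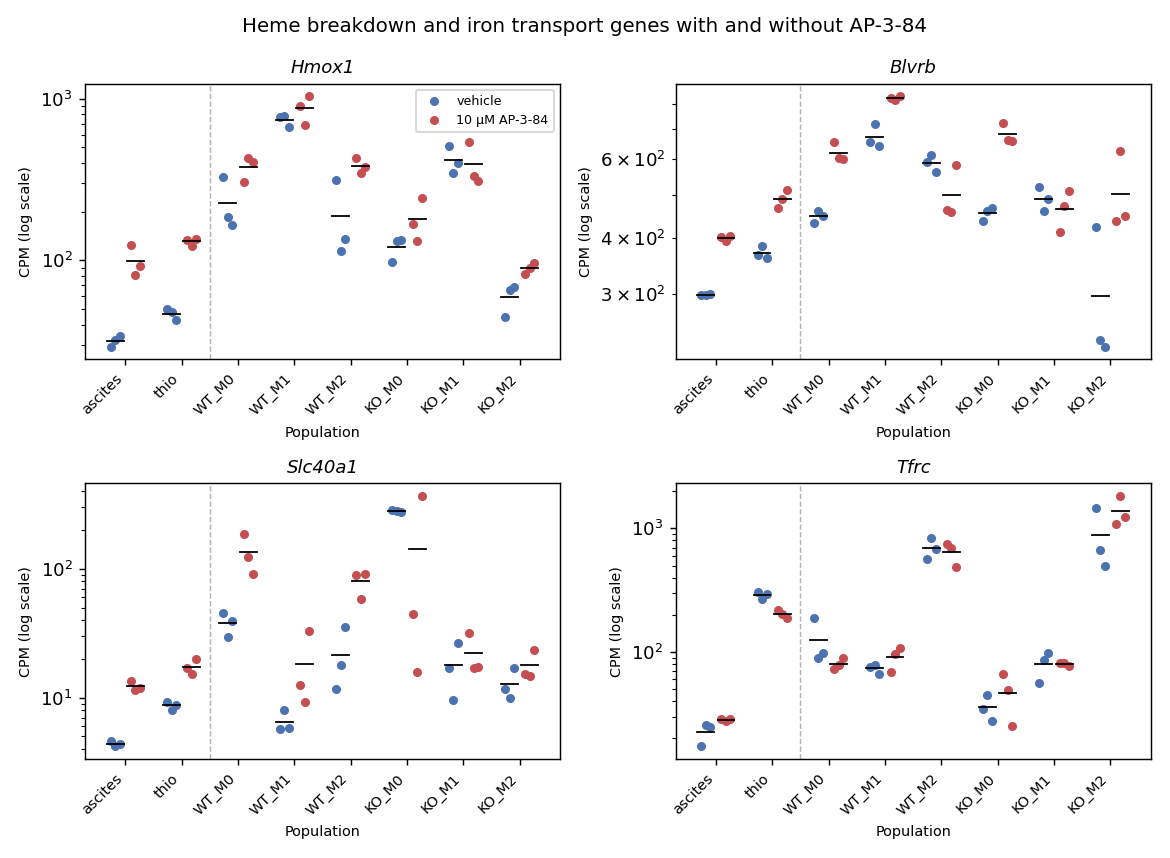
CPM of Hmox1, Blvrb, Slc40a1 and Tfrc (log axis) in each of the 48 libraries, by population; blue points are vehicle, red points AP-3-84, bars the group means, and the dashed line separates the peritoneal from the bone marrow-derived populations, which were scaled apart. Red points lie clear of blue ones for Hmox1, Blvrb and Slc40a1 in ascites and thioglycollate macrophages, and the KO M0 Slc40a1 points with AP-3-84 split into 44.7, 15.8 and 368 CPM.

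Slc40a1 (ENSMUSG00000025993, chr1:45908068-45926523, minus strand), the iron exporter with a 5′ element, was scarce in peritoneal cells and rose there with the compound. Ascites vehicle libraries had 4.61, 4.19 and 4.34 CPM and treated ones 13.5, 11.5 and 11.9 CPM. The groups were separate by a wide margin (log2 1.49 ± 0.15, edgeR adjusted p 9.57e-06). Thioglycollate libraries had 9.19, 8.08 and 8.84 CPM and 17.0, 15.4 and 19.8 CPM, also separate (log2 1.00 ± 0.14, edgeR adjusted p 0.000392).

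All 3 wild-type bone marrow-derived populations had higher Slc40a1 in every treated library, none of them called. In M0 cells the values were 45.5, 29.6 and 39.6 CPM in vehicle and 188, 123 and 90.7 CPM with AP-3-84 (log2 1.81 ± 0.67, edgeR adjusted p 0.398). In M1 cells they were 5.66, 7.95 and 5.79 CPM and 12.5, 9.33 and 33.1 CPM, the last treated library far above the other 2 (log2 1.47 ± 0.82, edgeR adjusted p 0.719). In M2 cells they were 11.7, 17.8 and 35.1 CPM and 90.2, 58.2 and 90.9 CPM (log2 1.89 ± 0.70, edgeR adjusted p 0.228). These fold changes are of the size of the peritoneal ones, with much larger standard errors. With no filter on low counts all 3 were called (edgeR adjusted p 1.03e-14, 5.23e-06 and 3.57e-15). The standard errors were then 0.21, 0.26 and 0.22, far below those of the filtered fit. M0 was also called in a fit of its own 6 libraries (edgeR adjusted p 0.0176).

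None of the KO populations had that order. In KO M0, treated libraries 1 and 2 were far below the vehicle libraries and library 3 above them (log2 -0.98 ± 0.64, edgeR adjusted p 0.292). Without libraries 1 and 2 the log2 fold change turned to 0.40, and without library 3 it was -3.21 and called (edgeR adjusted p 4.42e-05). With no filter on low counts KO M0 was called lower (log2 -0.96 ± 0.20, edgeR adjusted p 4.52e-05), although its treated libraries disagree. KO M1 libraries overlapped, 17.0, 9.62 and 26.8 CPM in vehicle and 31.8, 17.0 and 17.4 CPM with the compound (log2 0.30 ± 0.71, edgeR adjusted p 1). KO M2 libraries overlapped as well, 11.7, 9.91 and 16.9 CPM and 15.3, 14.7 and 23.3 CPM (log2 0.48 ± 0.75, edgeR adjusted p 0.846).

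Over the 8 populations, all treated libraries lay above all vehicle libraries in 6 for Blvrb, 5 for Slc40a1, 4 for Hmox1 and 4 for Ftl1, and in no population did the reverse hold for these 4 genes. The reverse held in 4 populations for Ncoa4 and in 3 for Slc11a2. Such complete separation was common among all genes. Upward it held for 9.86% of genes in ascites, 12.7% in thioglycollate macrophages, 9.08%, 9.6% and 7.98% in wild-type M0, M1 and M2, and 15.4%, 2.79% and 6% in KO M0, M1 and M2. Downward the shares in the same order were 6.41%, 10.6%, 7.62%, 8.73%, 8.78%, 16.7%, 3.87% and 5.38%. The KO M0 shares take all 3 treated libraries.

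Among the storage genes, neither ferritin chain was called with AP-3-84 in any population. Ftl1 (ENSMUSG00000050708, chr7:45457944-45459884, minus strand) read 9041, 9877 and 10944 CPM in ascites vehicle libraries and 13559.5, 11194 and 11520.3 CPM in treated ones. The treated libraries were all higher, by less than the test required (log2 0.28 ± 0.08, edgeR adjusted p 0.098); without vehicle library 3, the highest of its group, the edgeR adjusted p was 0.0387. Ftl1 was likewise higher in every treated library of thioglycollate (log2 0.16 ± 0.08, edgeR adjusted p 0.321), wild-type M0 (log2 0.34 ± 0.16, edgeR adjusted p 0.509) and wild-type M1 cells (log2 0.38 ± 0.16, edgeR adjusted p 0.567). In KO M0 it read 15720.4, 18271 and 18383 CPM in vehicle and 12972, 10765 and 16230.5 CPM with the compound, lower in treated libraries 1 and 2 (log2 -0.39 ± 0.16, edgeR adjusted p 0.0854). Without those 2 libraries the log2 fold change was -0.09, and without library 3 it was -0.55 and called (0.0147).

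Fth1 (ENSMUSG00000024661, chr19:9980598-9985098, plus strand) moved least of the 10: its log2 fold changes with AP-3-84 ran from -0.17 in wild-type M2 to 0.20 in KO M0, where it was 0.34 without treated libraries 1 and 2 and called in neither fit. In ascites the libraries read 15228, 15024 and 15110.3 CPM in vehicle and 13437, 15575 and 15713 CPM with the compound, overlapping (log2 -0.02 ± 0.06, edgeR adjusted p 0.942). The ratio of Fth1 to Ftl1 counts within a library, a description chosen after the values were seen and a ratio of 3′ tags, not of protein chains, was 1.03 ± 0.0102 (SD, n = 3) in thioglycollate vehicle and 0.896 ± 0.0163 in treated libraries. It was 1.53 ± 0.152 and 1.25 ± 0.224 in ascites, 1.32 ± 0.124 and 1.10 ± 0.112 in wild-type M0, and 3.68 ± 0.736 and 2.62 ± 0.146 in wild-type M1. The treated range lay below the vehicle range in wild-type M0 (0.979 to 1.20 against 1.22 to 1.46), wild-type M1 (2.45 to 2.71 against 2.83 to 4.16) and thioglycollate cells. KO M0 went the other way, from a range of 0.842 to 0.993 in vehicle to one of 1.24 to 1.60 with the compound, lowest in treated library 3. In the remaining populations the treated and vehicle ranges overlapped. They were 0.991 to 1.39 and 1.38 to 1.68 in ascites, and 0.686 to 0.929 and 0.643 to 1.24 in wild-type M2. KO M1 had 1.59 to 3.34 and 1.92 to 3.20, and KO M2 had 0.912 to 1.02 and 0.710 to 1.07, both with a higher treated mean.

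Ncoa4 (ENSMUSG00000056234, chr14:32159865-32179855, plus strand), the receptor for ferritin turnover, read 117, 114 and 122 CPM in thioglycollate vehicle libraries and 84.5, 94.8 and 81.3 CPM with AP-3-84. All treated libraries were below all vehicle ones, and it fell 1.35-fold (log2 -0.44 ± 0.08, edgeR adjusted p 0.00529). In ascites the values overlapped, 70.2, 77.9 and 68.6 CPM and 61.0, 74.0 and 66.7 CPM (log2 -0.10 ± 0.08, edgeR adjusted p 0.738). KO M0 libraries had 108, 103 and 74.7 CPM in vehicle and 36.6, 32.8 and 69.1 CPM with the compound. Treated libraries 1 and 2 were low, and library 3 was just under the lowest vehicle library (log2 -1.05 ± 0.23, edgeR adjusted p 0.00177). Without libraries 1 and 2 the log2 fold change was -0.45, and without library 3 it was -1.45 and called (edgeR adjusted p 1.8e-05). A fit of these 6 libraries alone did not call Ncoa4 (edgeR adjusted p 0.0636). In wild-type M0 and M2 every treated library was below every vehicle library, without a call (log2 -0.31 ± 0.24, edgeR adjusted p 0.705) and (log2 -0.59 ± 0.23, edgeR adjusted p 0.265).

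Of the import genes, Tfrc (ENSMUSG00000022797, chr16:32608920-32632794, plus strand), which carries the 3′ elements, read 307, 268 and 296 CPM in thioglycollate vehicle libraries and 220.4, 202 and 188 CPM with AP-3-84. The treated libraries were all lower, and it fell 1.43-fold (log2 -0.51 ± 0.11, edgeR adjusted p 0.0136). The call did not survive leaving out treated library 2 or 3 or vehicle library 1 or 3, with edgeR adjusted p-values of 0.0594 to 0.0744. In ascites Tfrc was scarce, 17.3, 25.7 and 24.7 CPM in vehicle and 28.5, 27.5 and 28.7 CPM with the compound. There every treated library was the higher, without a call (log2 0.32 ± 0.12, edgeR adjusted p 0.297). The difference between these 2 responses had a log2 value of 0.84 (SE 0.16, edgeR adjusted p 0.0752), was called by DESeq2 (adjusted p 0.00214) and was called without ascites vehicle library 1, its lowest (0.0299). In KO M2 the vehicle libraries read 1468, 673 and 494 CPM and the treated ones 1090.2, 1834 and 1244 CPM, with overlap (log2 0.66 ± 0.33, edgeR adjusted p 0.42). Without vehicle library 1 that rise was called (log2 fold change 1.25, edgeR adjusted p 0.0271).

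Slc11a2 (ENSMUSG00000023030, chr15:100387898-100425072, minus strand) was the one gene called in opposite directions. Wild-type M2 libraries had 203, 145 and 122 CPM in vehicle and 86.1, 89.8 and 94.5 CPM with AP-3-84, with all treated libraries lower and tight. It fell 1.74-fold (log2 -0.80 ± 0.21, edgeR adjusted p 0.0434), but the call was lost without any 1 treated library or vehicle library 1 or 2 (edgeR adjusted p 0.0726 to 0.241) and when scaled by total counts (0.0747) or fitted on these 6 libraries alone (0.0977). KO M0 libraries had 37.5, 38.5 and 40.8 CPM in vehicle and 146, 118 and 52.2 CPM with the compound. All treated libraries were higher, libraries 1 and 2 by far the most, and it rose 2.70-fold (log2 1.44 ± 0.21, edgeR adjusted p 1.58e-05). With library 3 alone the log2 fold change was 0.43, and without library 3 it was 1.76 and called (edgeR adjusted p 6.8e-10).

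Slc11a1 (ENSMUSG00000026177, chr1:74375195-74386062, plus strand) read 154, 163 and 127 CPM in KO M0 vehicle libraries and 276, 222 and 203 CPM in treated ones. The treated libraries were all higher, and it rose 1.58-fold (log2 0.66 ± 0.22, edgeR adjusted p 0.0285). Leaving out treated library 1 or 2 or vehicle library 1 or 3 ended the call (edgeR adjusted p 0.0536 to 0.151), as did leaving out both treated libraries (log2 fold change 0.47, 0.734) and a fit of these 6 libraries alone (0.0569). It was called in no other population; in thioglycollate macrophages the log2 fold change was -0.03 and in ascites 0.15.

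Whether the response to AP-3-84 differed between populations was tested directly in 4 contrasts, which use the same libraries as the comparisons above. Between ascites and thioglycollate macrophages none of the 10 genes was called by edgeR (background 0.118%), with 3 at an unadjusted p under 0.05 and 1, Tfrc, called by DESeq2. For Hmox1 the difference of responses was 0.15 (SE 0.18) and for Blvrb 0.02 (SE 0.08) on the log2 scale. The responses of Slc40a1 were further apart, at log2 1.49 in ascites and 1.00 in thioglycollate macrophages, without a called difference. Between KO and wild-type M1 none was called (background 0.00849%), with 1 at an unadjusted p under 0.05 and 0 by DESeq2. Between KO and wild-type M2, Blvrb alone was called of the 10 (background 1.77%), where 61.1% of called genes were higher, or 36.1% on scaling by total counts, with a response higher in KO by 1.00 (SE 0.23, edgeR adjusted p 0.0182). Of the 12 libraries, leaving out any of 5 ended that call (edgeR adjusted p 0.0631 to 0.0878): KO M2 treated library 2, KO M2 vehicle library 2 or 3, or wild-type M2 treated library 1 or 2. A fit of these 12 libraries alone did not call it either (0.164).

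Between KO and wild-type M0, 4 of the 10 were called, against 17% of all genes, 2002 in number; without KO M0 treated libraries 1 and 2, 76 of 12711 genes were called. Slc11a2 (1.72, SE 0.30, edgeR adjusted p 0.000196) and Slc11a1 (0.96, SE 0.31, 0.0283) responded higher in KO. Slc40a1 (-2.78, SE 0.92, 0.0386) and Ftl1 (-0.73, SE 0.23, 0.0259) responded lower. Without KO M0 treated libraries 1 and 2 the log2 values were 0.72, 0.76, -1.41 and -0.44, none of them called (edgeR adjusted p 0.225, 0.402, 0.417 and 0.525). Slc11a2 kept its call when any single library was left out. Leaving out 1 of 6 libraries ended that of Ftl1 (KO treated 1 or 2, KO vehicle 2 or 3, wild-type treated 1 or vehicle 2; edgeR adjusted p 0.0585 to 0.112), and 1 of 6 that of Slc11a1 (KO treated 1 or 2, KO vehicle 3, wild-type treated 1 or 2 or vehicle 1; 0.0517 to 0.0917). The call of Slc40a1 was lost without any library but KO treated 3 and wild-type treated 3 (0.0574 to 0.108). Without KO treated library 3, Ncoa4 and Tfrc were called as well (0.00606 and 0.0441). The cell cycle and macrophage marker sums differed between the KO M0 treated libraries, as given above, but did not set libraries 1 and 2 apart from library 3. The neutrophil marker sums were 300, 296 and 480 CPM in KO M0 treated libraries 1, 2 and 3, against 573, 726 and 593 CPM in vehicle. The part of these marker sums in the 4 differences was not tested.

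Without the compound, polarization gave most of the calls, 36 of 60 gene and comparison pairs. Against M0, M1 polarization came with high Fth1 and Hmox1 and low ferroportin and Ncoa4, and M2 polarization with high Tfrc and low Slc11a1. These 6 directions against M0 held in wild-type and in KO cells. Low ferroportin was not particular to M1, since KO M2 was also called lower than KO M0. The 3 contrasts within a genotype share their groups of libraries, so their values are given side by side and not as separate evidence. Of the 10 genes, 6 were called for wild-type M1 against M0 (4 higher and 2 lower; background 15.5%, 8.01% higher and 7.49% lower) and 3 for M2 against M0 (2 and 1; 23.4%, 12.7% and 10.7%). M1 against M2 gave 7 (3 and 4; 25.5%, 11.9% and 13.6%). In KO cells the counts were 7 for M1 against M0 (5 and 2; 44.5%, 22.8% and 21.8%), 7 for M2 against M0 (2 and 5; 38%, 20.1% and 18%) and 6 for M1 against M2 (4 and 2; 25.4%, 12.4% and 13%). On scaling by total counts, 16.9% of the called genes were higher in wild-type M1 against M0 (51.7% as reported) and 30.7% in M2 against M0 (54.2%), with medians of all genes at -0.30 and -0.20 on the log2 scale; no call of the 10 genes changed direction. The macrophage marker sum moved too: 43570 to 46540 CPM in wild-type M1, 30190 to 38380 in M0 and 24910 to 30920 in M2, and 16070 to 25150, 32250 to 38950 and 5894 to 18410 in KO M1, M0 and M2; its part was not tested.

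**Figure D3:**
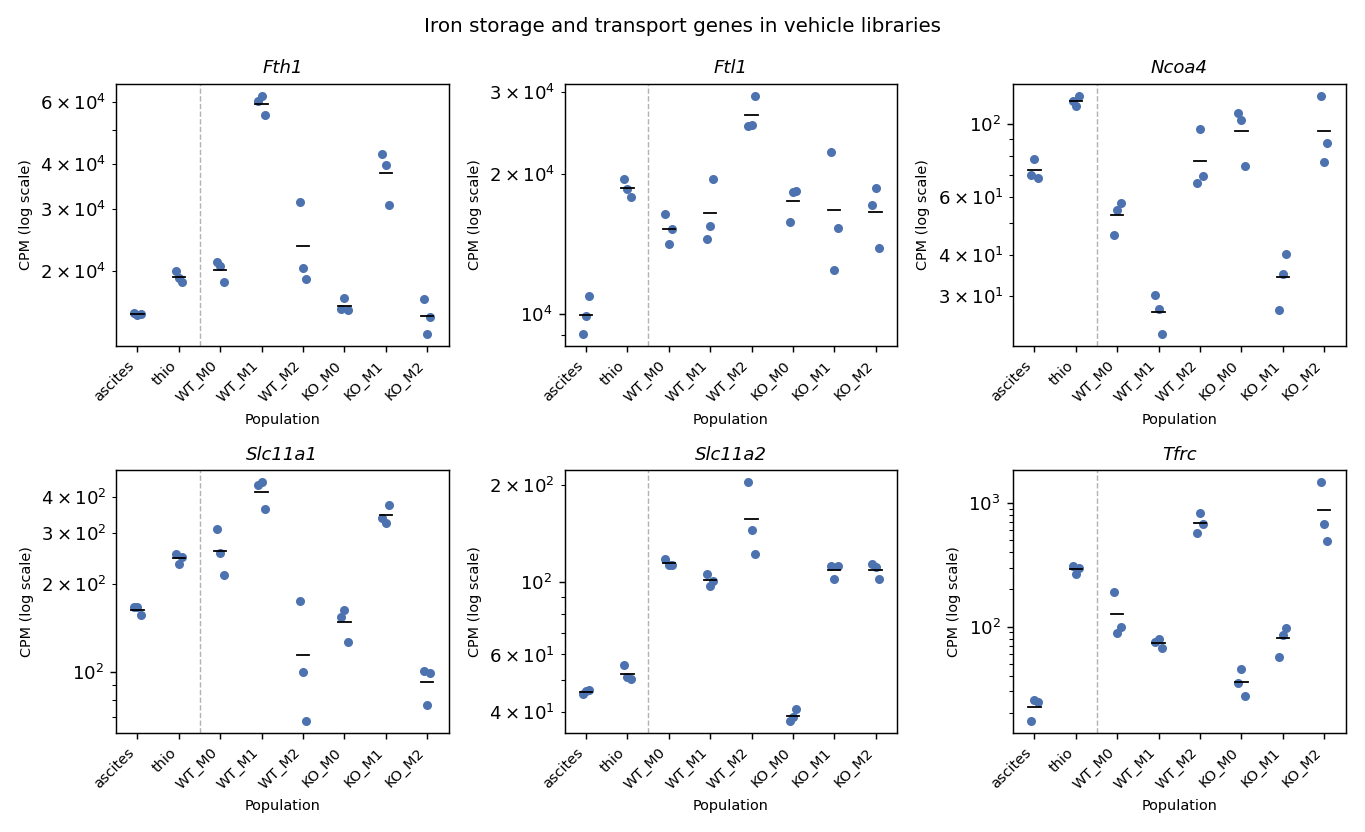
CPM of Fth1, Ftl1, Ncoa4, Slc11a1, Slc11a2 and Tfrc (log axes) in the 24 vehicle libraries, by population; each point is a library and each bar a group mean, with peritoneal and bone marrow-derived populations scaled apart. Fth1 is highest in the M1 groups and Tfrc in the M2 groups, and Slc11a2 is lowest among bone marrow-derived groups in KO M0.

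Fth1 showed the clearest M1 pattern. Wild-type vehicle libraries had 21149, 20655 and 18534 CPM in M0, 60339, 62589 and 55210.2 CPM in M1 and 31367, 20356 and 18931 CPM in M2. The M1 libraries were far above all others. Fth1 was 2.95-fold higher in M1 than in M0 (log2 1.56 ± 0.17, edgeR adjusted p 6.56e-08), and M2 did not differ by a call (log2 0.23 ± 0.16, edgeR adjusted p 0.329). KO libraries had 15608, 16768 and 15473 CPM in M0, 42907, 39821 and 30750.1 CPM in M1 and 16606, 13237 and 14755 CPM in M2. The same order held, at a lower M1 level (log2 1.25 ± 0.16, edgeR adjusted p 4.58e-07).

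Ftl1 did not follow Fth1. It read 16392, 14144 and 15203 CPM in wild-type M0, 14488, 15469 and 19479 CPM in M1 and 25264, 25408 and 29426 CPM in M2. M2 was the high group, 1.75-fold above M0 (log2 0.81 ± 0.16, edgeR adjusted p 0.00044), and M1 overlapped M0 (log2 0.11 ± 0.16, edgeR adjusted p 0.704). In KO cells the 3 states overlapped, at 15720.4, 18271 and 18383 CPM in M0, 22297, 12447 and 15308 CPM in M1 and 17106, 18639 and 13848 CPM in M2, and neither polarization was called against M0 (edgeR adjusted p 0.77 and 0.735). The Fth1 to Ftl1 count ratio was 3.68 ± 0.736 (SD, n = 3) in wild-type M1, 1.32 ± 0.124 in M0 and 0.895 ± 0.310 in M2, and 2.38 ± 0.713, 0.917 ± 0.0756 and 0.915 ± 0.184 in KO M1, M0 and M2.

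**Figure D4:**
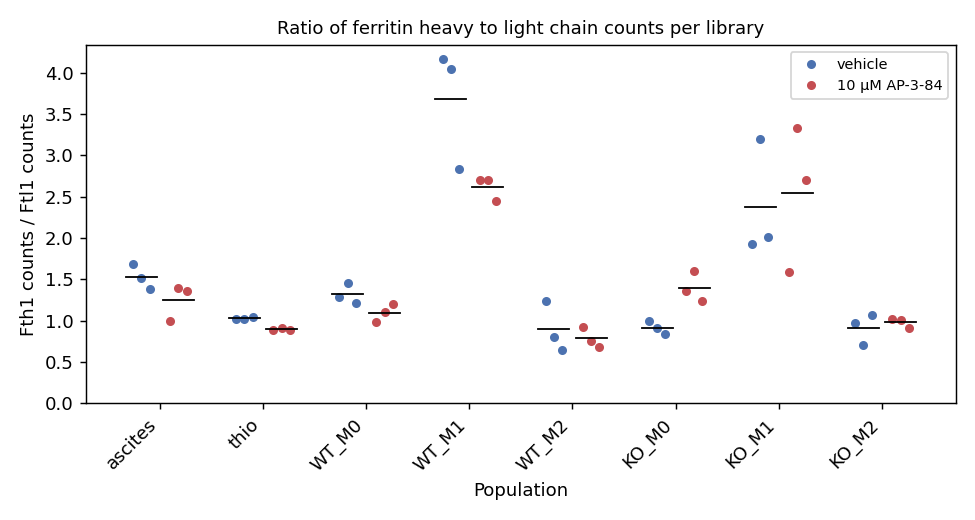
Ratio of Fth1 to Ftl1 counts in each of the 48 libraries, by population; blue points are vehicle, red points AP-3-84 and bars group means. The M1 libraries lie between 1.59 and 4.16 and the other libraries between 0.643 and 1.68; the ratio has no test.

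Ncoa4 was lowest in M1. Wild-type libraries had 46.0, 54.7 and 57.5 CPM in M0, 30.1, 27.3 and 22.9 CPM in M1 and 65.9, 96.5 and 69.7 CPM in M2, with no overlap between the states. The M1 level was 1.97-fold lower than M0 (log2 -0.98 ± 0.24, edgeR adjusted p 0.00533), while M2 against M0 was not called (log2 0.55 ± 0.23, edgeR adjusted p 0.0833). KO M1 libraries, 27.2, 34.9 and 40.2 CPM, were below KO M0 (log2 -1.48 ± 0.24, edgeR adjusted p 8.9e-06), and KO M2 libraries, 122, 76.6 and 87.6 CPM, overlapped KO M0 (log2 0.00 ± 0.23, edgeR adjusted p 1).

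Among the heme genes, Hmox1 was 3.27-fold higher in wild-type M1 than in M0 (log2 1.71 ± 0.31, edgeR adjusted p 0.000301) and 3.47-fold higher in KO M1 than in KO M0 (log2 1.79 ± 0.31, edgeR adjusted p 3.39e-05), with no overlap in either. KO M2 had less Hmox1 than KO M0 (log2 -1.02 ± 0.31, edgeR adjusted p 0.0108), a call lost without KO M2 vehicle library 1 (edgeR adjusted p 0.0592). In wild-type M2 it was not called (log2 -0.27 ± 0.30, edgeR adjusted p 0.562), but was without vehicle library 1 of M2 (log2 fold change -0.87, edgeR adjusted p 0.0254). Blvrb was higher in wild-type M1 than in M0 (log2 0.59 ± 0.16, edgeR adjusted p 0.0101); the call was lost without M1 vehicle library 2 (0.0551) and on scaling by total counts (0.151). In KO M2 it was lower than in KO M0 (log2 -0.62 ± 0.16, edgeR adjusted p 0.0027), a call lost in a fit of the groups compared alone (0.0579). Cd163 was called in KO M2 against KO M0 (log2 -3.18 ± 1.06, edgeR adjusted p 0.0178) on 3 counts in KO M2 and 27 in KO M0 libraries, and the call was lost without KO M0 library 1 or KO M2 library 2 or 3 (edgeR adjusted p 0.0536 to 0.0836).

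Slc40a1 was lower in M1 than in M0. Wild-type M1 libraries were all below wild-type M0, 5.88-fold in the fit (log2 -2.56 ± 0.79, edgeR adjusted p 0.0278), but the call was lost on leaving out M0 library 1 or 3 or any of the M1 libraries (edgeR adjusted p 0.0626 to 0.0934). In KO cells the M0 level was high, and both M1 (log2 -3.97 ± 0.73, edgeR adjusted p 0.000114) and M2 (log2 -4.45 ± 0.76, edgeR adjusted p 5.8e-05) lay far below it. M1 against M2 was called in neither genotype. In wild-type cells its log2 value was -1.72 (edgeR adjusted p 0.127). There DESeq2 called it (adjusted p 0.0413), as did edgeR in a fit of the groups compared alone (adjusted p 0.0109).

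Tfrc was the M2 gene of the group. Wild-type vehicle libraries had 189, 88.9 and 98.7 CPM in M0, 75.1, 79.2 and 67.0 CPM in M1 and 568, 829.7 and 679.9 CPM in M2. M2 was 5.51-fold above M0, without overlap (log2 2.46 ± 0.35, edgeR adjusted p 8.9e-06). KO libraries had 34.9, 45.2 and 27.6 CPM in M0, 56.3, 86.1 and 98.0 CPM in M1 and 1468, 673 and 494 CPM in M2. KO M0 was the lowest of the 3, so M2 was 24.5-fold above it (log2 4.61 ± 0.39, edgeR adjusted p 1.64e-09) and M1 was above it as well (log2 1.16 ± 0.36, edgeR adjusted p 0.00976). In wild-type cells M1 against M0 was not called (log2 -0.77 ± 0.34, edgeR adjusted p 0.138).

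Slc11a1, the phagosomal transporter, was lowest in M2. Wild-type libraries had 309, 256 and 215 CPM in M0, 439.9, 449 and 362 CPM in M1 and 175, 99.8 and 67.8 CPM in M2, and the 3 states did not overlap. M2 was 2.27-fold lower than M0 (log2 -1.18 ± 0.22, edgeR adjusted p 0.000155). M1 was higher than M0 (log2 0.68 ± 0.22, edgeR adjusted p 0.0278), a call lost without any of 4 libraries, M0 libraries 2 and 3 and M1 libraries 1 and 2 (0.0822 to 0.144), and on scaling by total counts (0.184). In KO cells M1 libraries read 339, 325 and 375 CPM and M2 libraries 101, 76.8 and 99.2 CPM, on either side of M0 (log2 1.23 ± 0.22, edgeR adjusted p 3.62e-05) and (log2 -0.68 ± 0.22, edgeR adjusted p 0.0143); the M2 call was lost without KO M2 library 2 (0.0816).

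Slc11a2 read 118, 113 and 113 CPM in wild-type M0, 106, 97.2 and 101 CPM in M1 and 203, 145 and 122 CPM in M2, and neither M1 nor M2 was called against M0. M1 was lower than M2 (log2 -0.63 ± 0.21, edgeR adjusted p 0.0219), a call lost without M1 library 2 or 3 or M2 library 1 (edgeR adjusted p 0.0514 to 0.18). In KO cells M1 libraries had 113, 102 and 112 CPM and M2 libraries 114, 112 and 103 CPM, 2.80-fold and 2.81-fold above a low KO M0 (log2 1.49 ± 0.21, edgeR adjusted p 1.75e-06) and (log2 1.49 ± 0.21, edgeR adjusted p 2.17e-06).

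Loss of p53 was compared in vehicle libraries of each state. In M0 cells, ferroportin and Ncoa4 were higher in KO, and Hmox1, Tfrc, Slc11a1 and Slc11a2 lower. In M1 Fth1 alone was called, lower in KO, and in M2 Hmox1, Blvrb, Fth1, Ftl1 and Cd163 were lower in KO. That is 6 of 10 in M0 (2 higher and 4 lower; background 33.2%, 16.4% higher and 16.8% lower), 1 of 10 in M1 (11.6%, 5.93% and 5.71%) and 5 of 10 in M2 (3.56%, 1.21% and 2.34%). The median log2 fold change of the 10 genes was -0.15, -0.12 and -0.68 in M0, M1 and M2, against 0.03, 0.00 and 0.01 over all genes. On scaling by total counts 89.0% of called genes were higher in KO M1 (50.9% as reported) and 76.6% in KO M2 (34.1%), with medians of all genes at 0.27 and 0.19. The M0 vehicle libraries enter both the polarization and the genotype contrasts.

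In M0 the largest difference was in Slc40a1, 7.32-fold higher in KO, with every KO library above every wild-type one (log2 2.87 ± 0.69, edgeR adjusted p 0.00241). Slc11a2 was 2.95-fold lower (log2 -1.56 ± 0.21, edgeR adjusted p 2.34e-06) and Tfrc 3.51-fold lower (log2 -1.81 ± 0.36, edgeR adjusted p 0.000396), both without overlap. Slc11a1 was lower (log2 -0.81 ± 0.22, edgeR adjusted p 0.00458) and Ncoa4 higher (log2 0.85 ± 0.23, edgeR adjusted p 0.00524). Hmox1 was lower (log2 -0.91 ± 0.30, edgeR adjusted p 0.022), a call that depended on KO library 1 and wild-type library 1 (edgeR adjusted p 0.0917 and 0.217 without each). The cell cycle marker sum was 165 to 214 CPM in KO M0 and 1572 to 1688 CPM in wild-type M0, and its part in these differences was not tested. KO M0 was the bone marrow-derived group with the highest vehicle Slc40a1, 281 ± 3.93 CPM (SD, n = 3), and the lowest Tfrc, 35.9 ± 8.88 CPM, and Slc11a2, 38.9 ± 1.73 CPM.

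In M1, Fth1 was 1.57-fold lower in KO without overlap (log2 -0.65 ± 0.16, edgeR adjusted p 0.00882); the call was lost without KO library 3, its lowest (edgeR adjusted p 0.0819), and on scaling by total counts (0.0558). Hmox1 was lower in every KO M1 library and missed the threshold (log2 -0.82 ± 0.30, edgeR adjusted p 0.0688). So did Blvrb, also lower in every KO library (log2 -0.46, edgeR adjusted p 0.0548). Slc40a1 was higher in every KO library (log2 1.46, edgeR adjusted p 0.248). DESeq2 called Hmox1 and Blvrb (adjusted p 0.0468 and 0.0492). An edgeR fit of the groups compared alone called Hmox1, Blvrb and Slc40a1 (adjusted p 0.00692, 0.0318 and 0.0195). KO M1 libraries also had a macrophage marker sum of 16070 to 25150 CPM, against 43570 to 46540 in wild-type M1, and a neutrophil sum of 972 to 2487 CPM, against 441 to 569, whose part was not tested.

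In M2, Hmox1 was 3.16-fold lower in KO (log2 -1.66 ± 0.31, edgeR adjusted p 0.00286) and Blvrb 1.99-fold lower (log2 -0.99 ± 0.16, edgeR adjusted p 0.000328), and both calls held when any 1 library was left out. The size for Hmox1 was less stable, with log2 values of -1.94 to -1.07 over the alternatives. The wild-type M2 vehicle libraries spread from 114 to 316 CPM of Hmox1, highest in library 1, the one with the high neutrophil sum. Fth1 (log2 -0.66 ± 0.16, edgeR adjusted p 0.017) lost its call without KO library 2 or 3 or wild-type library 1 (edgeR adjusted p 0.0832 to 0.141), and Ftl1 (log2 -0.69 ± 0.16, edgeR adjusted p 0.0138) without KO library 3 (0.125) or on scaling by total counts (0.0524). Cd163 (log2 -3.63 ± 1.04, edgeR adjusted p 0.0427) drew on wild-type library 1, at 8.35 CPM against 0.302 and 1.58 CPM in the other 2, and without it the edgeR adjusted p was 0.431; the call was lost as well without KO library 2 or 3 (0.172 and 0.168). In a fit of these 6 libraries alone Hmox1, Blvrb, Fth1 and Ftl1 were no longer called (0.223, 0.212, 0.294 and 0.22). The macrophage marker sums of these 2 groups do not overlap, as given above, and their part was not tested.

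Of the 10 genes, 8 were lower in ascites than in thioglycollate macrophages without the compound and none was higher, where 33.7% of all genes were called, 20.3% higher and 13.4% lower. The median log2 fold change was -0.57, against 0.05 over all genes; on scaling by total counts 70.3% of called genes were higher (60.3% as reported) and the median of all genes was 0.14. Tfrc differed most, 12.8-fold lower (log2 -3.68 ± 0.12, edgeR adjusted p 3.68e-12), and the libraries given above did not come near each other. The storage genes were lower as well: Ftl1 1.87-fold (log2 -0.90 ± 0.08, edgeR adjusted p 1.03e-07), Ncoa4 1.63-fold (log2 -0.70 ± 0.08, edgeR adjusted p 2.92e-06) and Fth1 1.27-fold (log2 -0.34 ± 0.06, edgeR adjusted p 0.000165). So were Slc40a1 (log2 -0.99 ± 0.15, edgeR adjusted p 4.56e-05), Hmox1 (log2 -0.55 ± 0.13, edgeR adjusted p 0.00332) and Blvrb (log2 -0.31 ± 0.05, edgeR adjusted p 0.000175). Slc11a1 read 167, 167 and 157 CPM in ascites and 254, 235 and 249 CPM in thioglycollate vehicle libraries, without overlap (log2 -0.59 ± 0.06, edgeR adjusted p 1.05e-06). Slc11a2 (log2 -0.18 ± 0.08, edgeR adjusted p 0.0895) and Cd163 (log2 0.48 ± 0.44, edgeR adjusted p 0.481) were not called. In the single fit of all 48 libraries the calls of Blvrb, Hmox1 and Slc40a1 were lost (edgeR adjusted p 0.0615, 0.119 and 0.26). The epithelial or ID8 marker sum differs between these groups, as given above. All 10 cell cycle markers were called higher in ascites. Of the 7 macrophage markers Csf1r and Fcgr1 were called higher and Cd68, Lyz2 and Mertk lower. Cd4 was called higher and S100a8 lower. The part of these marker differences was not tested.

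Across the 6 bone marrow-derived vehicle groups, mean Hmox1 ran from 741 ± 65.7 CPM (SD, n = 3) in wild-type M1 and 419 ± 84.0 CPM in KO M1 down to 226 ± 89.6, 188 ± 111, 121 ± 20.6 and 59.5 ± 13.0 CPM in wild-type M0, wild-type M2, KO M0 and KO M2. The ranges of wild-type M0 and wild-type M2 overlapped, as did those of wild-type M2 and KO M0. Tfrc ran from 878 ± 519 CPM in KO M2 and 692 ± 131 CPM in wild-type M2, which overlapped, to 35.9 ± 8.88 CPM in KO M0, below all others. Mean Slc40a1 was 281 ± 3.93 CPM in KO M0 and 38.3 ± 8.04 CPM in wild-type M0. The other 4 groups had means of 21.5 ± 12.2 (wild-type M2), 17.8 ± 8.61 (KO M1), 12.8 ± 3.62 (KO M2) and 6.47 ± 1.28 CPM (wild-type M1).

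Other genes of heme and iron metabolism were read from 4 lists of 54 genes in all: transport and binding (21), heme breakdown and regulators (11), mitochondrial iron and iron-sulfur clusters (14) and heme synthesis (8). Of these, 48 were tested in peritoneal and 47 in bone marrow-derived cells. With AP-3-84 none was called in ascites, wild-type M0, wild-type M1, KO M1 or KO M2; edgeR's unadjusted p was under 0.05 for 5, 8, 0, 2 and 9 of them, and DESeq2 called 0 in each. In thioglycollate macrophages 3 were called (background 4.32%): 2 were higher, Alas1, the first enzyme of heme synthesis (log2 0.46, edgeR adjusted p 0.000274), and Slc25a37, the mitochondrial iron importer mitoferrin 1 (log2 0.39, edgeR adjusted p 0.00563), and 1 was lower, Hfe, a regulator of iron sensing (log2 -0.61, edgeR adjusted p 0.00281). These 3 calls were lost in the single fit of all 48 libraries (edgeR adjusted p 0.754, 0.954 and 0.510). In wild-type M2 Alas1 was lower (log2 -1.10, edgeR adjusted p 0.00882), a call lost in a fit of the 6 libraries alone (edgeR adjusted p 0.403) and without vehicle library 1 (0.189) or treated library 1 or 2 (0.0801 and 0.0732).

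In KO M0 4 of 47 listed genes were higher with the compound and 5 lower, where 20.7% of all genes were called. Cp, the copper oxidase ceruloplasmin, went from 4.82 ± 3.59 CPM (SD, n = 3) to 97.6 ± 57.2 CPM (log2 4.31, edgeR adjusted p 1.31e-05); with treated library 3 alone the edgeR adjusted p was 0.0575. Cisd1, a mitochondrial iron-sulfur protein, was higher (log2 0.81, edgeR adjusted p 0.00241), and Urod, of heme synthesis (log2 -0.99, edgeR adjusted p 0.0019), and Lrp1, the receptor for hemopexin-bound heme (log2 -0.74, edgeR adjusted p 0.00812), were lower. Cisd1, Urod and Lrp1 lost their calls in a fit of the groups compared alone (edgeR adjusted p 0.072, 0.063 and 0.078). Lrp1 also lost it without treated library 1 or 2 (0.0528 and 0.101), and Cisd1 without treated library 2 (0.0580). With treated library 3 alone none of these 4 was called, at log2 values of 2.72 for Cp, 0.37 for Cisd1, -0.49 for Urod and -0.28 for Lrp1. The KO minus wild-type difference of responses in M0 called 7 of the 47 (2 higher and 5 lower; background 17%), led by Cp (log2 4.68, edgeR adjusted p 0.000511), Cisd1 (log2 1.06, edgeR adjusted p 0.00533), Hfe (log2 -1.37, edgeR adjusted p 0.0137) and Urod (log2 -1.06, edgeR adjusted p 0.0172), none of them called without libraries 1 and 2, where the log2 values were 3.08, 0.63, -1.08 and -0.55. Hfe also lost its call without KO treated library 2 alone, and Urod without that library, KO vehicle library 2 or wild-type vehicle library 1 (edgeR adjusted p 0.0580 and 0.0604 to 0.0877). In M2 it called 3 of the 47 (background 1.77%), Alas1 (log2 1.84, edgeR adjusted p 0.00342), Nfe2l2, which encodes NRF2 (log2 1.29, edgeR adjusted p 0.0383), and Slc39a8, a zinc and iron importer (log2 -2.48, edgeR adjusted p 0.0483). The call of Slc39a8 was lost without any single library but KO vehicle 1, and that of Nfe2l2 without wild-type vehicle 2, wild-type treated 1 or 2, or library 2 or 3 of either KO group, with edgeR adjusted p-values of 0.0532 to 0.241 and 0.0764 to 0.155; in a fit of the 12 libraries alone none of the 3 was called (0.130 for Alas1). The calls of Slc39a8 and Nfe2l2 were also lost with the replicate number as a block (0.0634 and 0.0536), and that of Nfe2l2 on scaling by total counts (0.0580).

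Polarization called 13 of the 47 listed genes in wild-type M1 against M0 (9 higher and 4 lower; background 15.5%) and 11 in M2 against M0 (6 and 5; 23.4%). In KO cells it called 24 (15 and 9; 44.5%) and 13 (7 and 6; 38%). Nothing particular to the lists is read from these counts. Lcn2, which binds bacterial iron carriers (log2 6.66, edgeR adjusted p 4.34e-06), Hp, haptoglobin (log2 4.10, edgeR adjusted p 3.51e-06), and Cp (log2 4.04, edgeR adjusted p 1.29e-05) were higher in wild-type M1, and Bach1, the repressor of Hmox1, was lower (log2 -1.32, edgeR adjusted p 3.86e-05). KO M1 had higher Hp (log2 4.39, edgeR adjusted p 6.37e-07) and Cisd1 (log2 1.43, edgeR adjusted p 3.91e-07) and lower Bach1 (log2 -1.47, edgeR adjusted p 6.97e-07) and Hfe (log2 -2.28, edgeR adjusted p 3.04e-07). In M2, Alas1 was higher in wild-type (log2 2.54, edgeR adjusted p 2.95e-09) and in KO (log2 2.23, edgeR adjusted p 2.69e-08), as was Cisd1 (log2 1.26, edgeR adjusted p 2.88e-06, and log2 2.00, edgeR adjusted p 1.34e-09), while Lrp1 was lower in both (log2 -1.14, edgeR adjusted p 7.83e-05, and log2 -1.34, edgeR adjusted p 4.98e-06). Wild-type M2 also had higher Hfe (log2 1.11, edgeR adjusted p 0.00318; 0.0763 and not called in a fit of the groups compared alone), and KO M2 lower Slc25a37 (log2 -2.26, edgeR adjusted p 4.87e-07).

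M1 against M2 called 21 listed genes in wild-type (11 higher in M1 and 10 lower; background 25.5%) and 21 in KO cells (9 and 12; 25.4%). Hp and Slc25a37 were higher in M1 in both genotypes, at log2 fold changes of 4.52 and 2.06 in wild-type and 4.38 and 2.45 in KO cells. Cp was higher (log2 3.94, edgeR adjusted p 4.01e-06) and Alas1 lower (log2 -2.49, edgeR adjusted p 2.82e-09) in wild-type M1, and Slc48a1, a heme transporter of the phagolysosome (log2 1.56, edgeR adjusted p 6.75e-07), and Spic, a transcription factor of iron-recycling macrophages (log2 2.19, edgeR adjusted p 3.07e-06), were higher in KO M1.

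Genotype called 12 listed genes in M0 (5 higher in KO and 7 lower; background 33.2%), 9 in M1 (4 and 5; 11.6%) and 2 in M2, both lower (3.56%). KO M0 had more Trf, transferrin (log2 4.40, edgeR adjusted p 0.000132), Hfe (log2 1.18, edgeR adjusted p 0.00136) and Bach1 (log2 0.90, edgeR adjusted p 0.000681) and less Cisd1 (log2 -0.91, edgeR adjusted p 0.000382). KO M1 had less Lrp1 (log2 -1.03, edgeR adjusted p 0.00114) and Hmox2, the constitutive heme oxygenase (log2 -0.72, edgeR adjusted p 0.0118), and more Nfe2l2 (log2 0.88, edgeR adjusted p 0.0154) and Ltf, lactoferrin, a neutrophil granule protein (log2 5.04, edgeR adjusted p 0.0147). Each of the last 3 lost its call without 1 library or another, Hmox2 without wild-type or KO library 3, Nfe2l2 without wild-type library 1 or 2, and Ltf without wild-type library 1 or 3 or KO library 3 (edgeR adjusted p 0.0706 to 0.0760, 0.0588 to 0.0597 and 0.0566 to 0.0699). KO M2 had less Slc48a1 (log2 -1.41, edgeR adjusted p 7e-05) and Alas1 (log2 -1.17, edgeR adjusted p 0.00354); Alas1 lost its call without wild-type library 1 or KO library 3 (0.0504 to 0.0627), and both did in a fit of the 6 libraries alone (0.0961 and 0.331). Ascites against thioglycollate macrophages called 17 of 48 (8 higher and 9 lower; background 33.7%), with Hp (log2 4.45, edgeR adjusted p 2.38e-14) and Cp (log2 4.00, edgeR adjusted p 1.24e-12) higher in ascites and Lrp1 (log2 -1.70, edgeR adjusted p 1.73e-12) and Steap3, the endosomal ferrireductase (log2 -1.23, edgeR adjusted p 1.15e-08), lower.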

How the data were processed

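Per the labels' protocols, QuantSeq FWD 3′ libraries were made from 100 ng of DNase-treated RNA and sequenced on a NextSeq instrument as single 75-base reads. RSEM, Bowtie2 and DESeq2 are named in the submitters' processing notes, without versions or roles; the sources used here do not give the genome build or annotation. The deposited values are whole-number counts per gene identifier and library, and all 48 columns were matched to samples by their titles. The members and the gene lists were chosen with earlier results of these data known.

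The 12 peritoneal and 36 bone marrow-derived libraries were filtered on low counts (filterByExpr), scaled by TMM and fitted separately, leaving 16955 and 11779 genes, with a biological coefficient of variation of 0.168 and 0.225 and TMM factors of 0.945 to 1.049 and 0.829 to 1.118. A group-means model was tested by edgeR 4.0.16 quasi-likelihood F tests (robust, 2-sided, R 4.3.3) in 22 comparisons, each adjusted by Benjamini-Hochberg over all genes tested. CPM were computed by edgeR on TMM-scaled totals. A fold is 2 raised to the fitted log2 fold change. The fitting code was tested on simulated data.

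All 10 members were followed in every comparison; from the 4 other lists, at most 4 called genes with the lowest p were named. Gene locations are those of GENCODE M21 on GRCm38, matched by identifier. Alternatives were DESeq2 1.42.0, median-ratio and total-count scaling, no filter, one fit of all libraries, fits of only the groups compared, a replicate block, leaving out each library, summing Ftl1 with its copy Ftl1-ps1, and, chosen after seeing the data, leaving out both KO M0 treated libraries 1 and 2. Of the 30-base stretches of Ftl1-ps1, 63.8% also occur in Ftl1, so its reads may be split between them; it held 94232 counts against 5514275 for Ftl1. The counts are 3′ tags without length bias, so levels are not scaled by gene length and are compared between libraries rather than between genes.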

Additional observations from a re-analysis of the deposited data

Results flagged for a closer look

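The response to AP-3-84 differed between KO and wild-type M0 cells, by edgeR's test of the interaction, for 4 of the 10 genes: Ftl1 by -0.73, Slc40a1 by -2.78, Slc11a1 by 0.96 and Slc11a2 by 1.72 on the log2 scale (KO minus wild-type). Without KO M0 treated libraries 1 and 2 the 4 differences were -0.44, -1.41, 0.76 and 0.72, in the same directions, and none was called; 1 treated library then stands for its group. In M2 cells the response of Blvrb differed by 1.0, with higher Blvrb in all 3 treated KO libraries than in the vehicle ones and overlapping values in wild-type.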

How the results depend on the processing

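The labels give no sign that replicates are separate animals, Cd163 has few counts, and 1 lone library stands for KO M0 treated cells when libraries 1 and 2 are left out. Of 220 gene and comparison pairs, 74 were called; 39 stayed called under every alternative run for them (14 to 21 each), 35 lost the call under at least 1, 19 of these on leaving out a single library, and 0 of the 74 reversed. DESeq2 called 79 pairs (73 of them shared), median-ratio scaling and the summed ferritin copies 74 each, no filter 96, the single fit 68, the groups alone 67 and total scaling 72.

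Of the 13 called pairs with AP-3-84, the number was 26 with no filter, 9 in the single fit of all libraries, 9 without both KO M0 treated libraries 1 and 2, 11 with only the groups compared and 12 to 15 on leaving out each library. The 5 called differences in response became 8 with no filter, 3 with only the groups compared, 1 without both KO M0 treated libraries 1 and 2, and 2 to 7 on leaving out each library. The counts on leaving out each library were 32 to 36 for polarization (36 as reported), 9 to 12 for genotype (12) and 8 to 8 for ascites against thioglycollate (8), where the single fit gave 5. Signs of uncalled differences turned for Slc40a1 in KO M0 with AP-3-84 (-0.98, and 0.40 without both libraries), Hmox1 in KO M1 (-0.09, and -0.39 to 0.077 on leaving out each library, above 0 without vehicle 1, treated 2 or treated 3) and Slc40a1 in KO M1 (0.30, and -0.060 to 0.73 on leaving out each library, below 0 without treated 1). The cause was not tested.

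Whether the replicate numbers pair the samples cannot be settled here, because deviations from a mean of 3 libraries are not independent. The correlation of same-numbered deviations was -0.498 to 0.509, and in no population were all 3 over 0.1. It was 0.425, 0.509 and -0.113 in KO M1 and 0.263, -0.136 and 0.282 in wild-type M2. A fit with the replicate block called 72 of the 220 pairs and lost Slc11a2 in wild-type M2 with AP-3-84 (edgeR adjusted p 0.0519) and Cd163 in KO against wild-type M2 (0.0576).

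Counts over all genes moved by more than 1.5 times as follows, each alternative count in parentheses with its setting: AP-3-84 in ascites 303 (112 one fit, 519 no filter, 196 without ascites vehicle 2), in thioglycollate macrophages 733 (52 one fit, 427 without thio vehicle 3), in wild-type M0 17 (311 no filter, 0 without WT M0 vehicle 1), in wild-type M1 2 (230 no filter, 1 without WT M1 vehicle 1, 17 without WT M1 vehicle 3), in wild-type M2 142 (59 groups alone, 496 no filter, 29 without WT M2 treated 1), in KO M0 2440 (704 groups alone, 1074 without KO M0 treated 2, 67 without both KO M0 treated 1 and 2), in KO M1 0 (29 no filter), in KO M2 6 (0 groups alone, 577 no filter, 0 without KO M2 vehicle 2, 562 without KO M2 vehicle 1), the ascites minus thioglycollate response 20 (2 one fit, 155 no filter, 7 without ascites vehicle 2), the KO minus wild-type response in M0 2002 (1013 without KO M0 treated 2, 3121 without KO M0 treated 3, 76 without both KO M0 treated 1 and 2), in M1 1 (0 median-ratio, 162 no filter, 0 without WT M1 vehicle 1), in M2 208 (35 groups alone, 757 no filter, 46 without KO M2 vehicle 2, 751 without KO M2 vehicle 1), wild-type M1 against M0 1825 (1118 without WT M1 vehicle 2), KO M1 against M2 2993 (1782 groups alone), KO against wild-type M1 1372 (2093 total scaling, 580 without KO M1 vehicle 3), KO against wild-type M2 419 (7 groups alone, 959 no filter, 97 without KO M2 vehicle 3, 916 without KO M2 vehicle 1), ascites against thioglycollate 5716 (3252 one fit). On scaling by total counts the higher share of called genes moved from 94.4% to 81.8% for AP-3-84 in ascites, 19.0% to 33.1% in wild-type M2, 61.1% to 36.1% for the response difference in M2, 51.7% to 16.9% for wild-type M1 against M0, 54.2% to 30.7% for M2 against M0, 50.9% to 89.0% for genotype in M1, 34.1% to 76.6% in M2 and 60.3% to 70.3% for ascites against thioglycollate; the median log2 fold change of all genes was then 0.11, -0.15, -0.30, -0.20, 0.27, 0.19 and 0.14 in the last 7.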

Other observations

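Over the 12 bone marrow-derived groups, the genes whose mean log2 CPM ran most like that of 5 of the iron genes were named by Pearson's r, among the 8431 genes whose average log2 CPM was at least 3. For Hmox1 they were Snapc5 (0.947), P4ha1 (0.946) and Me1 (0.935). For Fth1 they were Pgm1 (0.974), Rnaset2a (0.965) and Slpi (0.964), and for Slc40a1 Hipk1 (0.939), Cpeb3 (0.937) and Dnajc7 (0.928). For Slc11a1 they were Pilrb1 (0.974), Pfkl (0.966) and Fam222b (0.965), and for Tfrc Ear2 (0.975), Eya3 (0.97) and Scn3a (0.967). The groups share libraries' depth and culture, genes were picked as the highest of many, and no p is given.

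RefSeq promoters, from 250 bases before to 50 after a start, were matched for 7 of the 10 genes (12 promoters) by symbol. The core antioxidant response motif TGACNNNGC, searched on both strands, was in 4071 of 32851 promoters (12.4%) and in 1 of these 12, that of Ncoa4. The search covers these short windows only.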
